A study of Saccharomyces cerevisiae with 24 samples.

Results

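Gluconeogenesis and the glyoxylate cycle were followed through 9 genes, taken by gene symbol from the 7126 genes of the count table: FBP1, PCK1, ICL1, MLS1, MDH2, CIT2, SFC1, CAT8 and SIP4. All 9 were among the 6503 genes that were tested. The data were RNA-seq libraries of budding yeast (Saccharomyces cerevisiae), strain CEN.PK, in 12 groups of 2 libraries. rph1Δ cells lack Rph1, a demethylase of lysine 36 on histone H3, and set2Δ cells lack Set2, the methyltransferase of that lysine. H3K36A cells have, per their genotype label, an alanine codon for that lysine in HHT1 and in HHT2, the genes of histone H3. WT cells carry none of these changes. Each genotype was sampled at log phase in rich medium (YPL, 0 h). Washed cells were then shifted to minimal medium (SL) and sampled there after 1 h and 3 h. The comparisons ask how these genes responded to minimal medium and whether loss of Rph1, of Set2 or the labelled change of the lysine altered their levels or responses. The labels do not say whether the 2 libraries of a group came from separate cultures, or how many clones a genotype stands for, so the p-values measure only the spread between these libraries.

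Gluconeogenesis builds glucose phosphates from smaller carbon compounds when sugar is scarce. It runs glycolysis backwards through the shared enzymes and bypasses the irreversible steps with enzymes of its own. The glyoxylate cycle skips the carbon-losing steps of the citric acid cycle, so that acetyl units can be turned into malate and oxaloacetate and from there into sugar. In yeast, glucose shuts these genes off, and the zinc-cluster activators Cat8 and Sip4, acting downstream of the kinase Snf1, bind carbon source-responsive elements (CSREs) upstream of many of them. CIT2 is known for another input, the retrograde pathway, in which the Rtg1-Rtg3 factor binds R boxes.

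The total count was 6623458 to 7677684 per library, with a median of 7055346.5. Between the 2 libraries of a group, the chi-square per degree of freedom over genes was highest in set2Δ at 0 h (14.9) and WT at 3 h (12.8). It was 9.77 in H3K36A at 0 h and 2.72 to 6.78 in the other groups. Every comparison of a mutant with WT at 3 h uses that WT pair. RPH1 held 8 counts over the 6 rph1Δ libraries, against 3336 over the 6 WT libraries, and SET2 held 0 in set2Δ, against 1641 in WT. HHT1 and HHT2 held 5 and 2 counts in H3K36A, against 16771 and 23721 in WT, and the sources used here do not give how H3 was encoded in that strain. HMRA1, a mating-type gene with a copy at MAT in a cells, had no count in any of the 6 rph1Δ libraries, against 31 to 118 in the 18 others. The rph1Δ strain may thus be of the other mating type, which was not checked with other genes here. If it is, Rph1 loss and mating type cannot be told apart in any rph1Δ value below.

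The 9 genes lie on 8 chromosomes at the same coordinates in the table (sacCer3) and in the RefSeq reference R64, and none overlaps another gene. The 800 bases upstream of each start codon were searched on both strands for the CSRE core CCNNNNNNCCG, the longer CSRE consensus, the R box GTCAC and the Mig1 core CCCCNC, Mig1 being the repressor that acts in glucose. A CSRE core stood upstream of 7 of the 9 genes, all but CIT2 and CAT8, beside 32.2% of all 5997 upstream windows. The longer consensus, whose matches all contain a core match, stood upstream of PCK1, ICL1, MLS1 and MDH2, against 0.667% of all windows. MLS1 held 2 of these and MDH2 held 3, and 0.1% of windows held 2 or more. Whether these promoters were among those from which the consensus was drawn up was not checked, so the contrast is no test of enrichment. An R box stood upstream of 7 genes, against 59.9% of windows, with 3 each at CIT2 and SFC1. A Mig1 core stood upstream of 5 genes, against 35% of windows. The CIT2 window runs past its neighbour YCR006C, which lies 201 bases away, and those of FBP1, PCK1 and MLS1 reach a neighbour at 583, 771 and 793 bases. Core matches overlap each other at FBP1, MLS1 and SIP4. The 7 consensus matches are shown because the genes with them are the enzymes whose levels are compared below, the farthest core match is shown for the 3 genes with a core only, and the 3 R boxes of CIT2 are shown because CIT2 is the gene that varied most. Capitals mark the match, sequences are from the S288C reference in the build R64 and not from CEN.PK, and each reads 5′ to 3′ on the strand named. A match is a description of the letters and not evidence of binding.
PCK1 CSRE consensus, chrXI:630658-630693, plus strand, 482 to 471 bases upstream: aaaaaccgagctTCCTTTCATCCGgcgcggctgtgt
ICL1 CSRE consensus, chrV:287290-287325, minus strand, 399 to 388 bases upstream: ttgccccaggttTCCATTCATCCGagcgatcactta
MLS1 CSRE consensus, chrXIV:405815-405850, minus strand, 531 to 520 bases upstream: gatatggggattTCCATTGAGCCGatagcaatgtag
MLS1 CSRE consensus, chrXIV:405845-405880, plus strand, 501 to 490 bases upstream: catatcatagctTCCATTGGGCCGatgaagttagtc
MDH2 CSRE consensus, chrXV:83330-83365, plus strand, 433 to 422 bases upstream: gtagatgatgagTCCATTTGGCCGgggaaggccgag
MDH2 CSRE consensus, chrXV:83298-83333, minus strand, 401 to 390 bases upstream: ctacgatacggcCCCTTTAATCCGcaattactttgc
MDH2 CSRE consensus, chrXV:83275-83310, minus strand, 378 to 367 bases upstream: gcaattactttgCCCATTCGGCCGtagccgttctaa
FBP1 CSRE core, chrXII:875274-875308, plus strand, 504 to 494 bases upstream: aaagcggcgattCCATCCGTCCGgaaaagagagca
SFC1 CSRE core, chrX:609082-609116, minus strand, 679 to 669 bases upstream: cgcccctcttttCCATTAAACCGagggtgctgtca
SIP4 CSRE core, chrX:265639-265673, plus strand, 275 to 265 bases upstream: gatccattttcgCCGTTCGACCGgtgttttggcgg
CIT2 R box, chrIII:122657-122685, minus strand, 345 to 341 bases upstream: aggggcgaagagGTCACgacctatttttt
CIT2 R box, chrIII:122624-122652, plus strand, 312 to 308 bases upstream: gctacggaaaagGTCACactttttttctg
CIT2 R box, chrIII:122508-122536, plus strand, 196 to 192 bases upstream: ctttagattaacGTCACcaatttcatacg

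**Figure D1:**
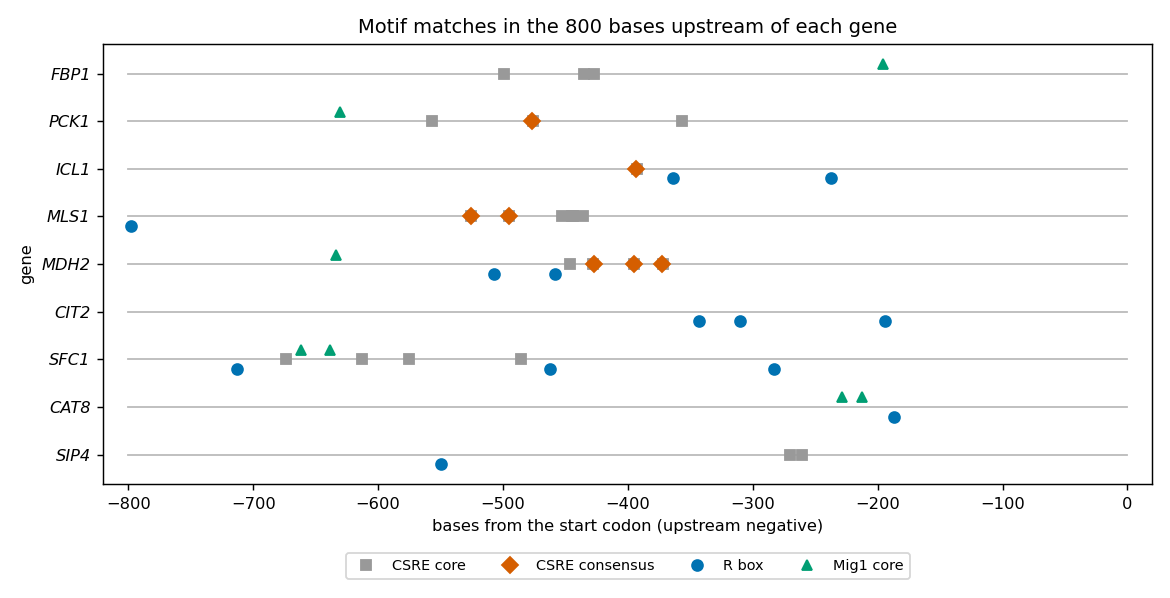
Motif matches upstream of the 9 genes, with the distance from the start codon in bases on the horizontal axis and a row for each gene. Squares are CSRE core matches, diamonds the longer CSRE consensus, circles R boxes and triangles Mig1 cores; CIT2 shows 3 R boxes and no CSRE core.

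Levels are given as scaled RPKM, read counts scaled for exonic length and for the TMM-scaled size of the library, so that genes can be compared. PCK1, the phosphoenolpyruvate carboxykinase that turns oxaloacetate into phosphoenolpyruvate, had the highest level of the 9 genes at 0 h in all 4 genotypes, at 4024 and 4147 in the rph1Δ libraries, 2044 and 2432 in set2Δ, 2423 and 2187 in H3K36A and 3204 and 3374 in WT. In WT at 0 h it was followed by FBP1, then ICL1 and SFC1, which did not differ beyond their spread, then MLS1, MDH2 and CIT2. MDH2 had the highest level at 1 h in rph1Δ, H3K36A and WT, and PCK1 in set2Δ. The regulators SIP4 and CAT8 had the lowest levels in every group, and CAT8 was always below SIP4. Summed over the 9 genes, the level in WT was 8147 and 8203 at 0 h, 13095 and 13431 at 1 h and 14441 and 16236 at 3 h.

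The genes varied to very different extents across the 12 group means. The ratio of the highest to the lowest mean was 17.1 for CIT2, 11.4 for MDH2, 7.59 for SIP4, 3.62 for FBP1, 3.08 for SFC1, 2.96 for MLS1, 2.40 for ICL1, 1.83 for PCK1 and 1.40 for CAT8. CIT2 ranged between 109 ± 12 (SD, n = 2) in set2Δ at 0 h and 1859.6 ± 8.65 (SD, n = 2) in set2Δ at 3 h. CAT8, the activator of the pathway, stayed between 11.1 and 18.8 scaled RPKM in all 24 libraries.

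**Figure D2:**
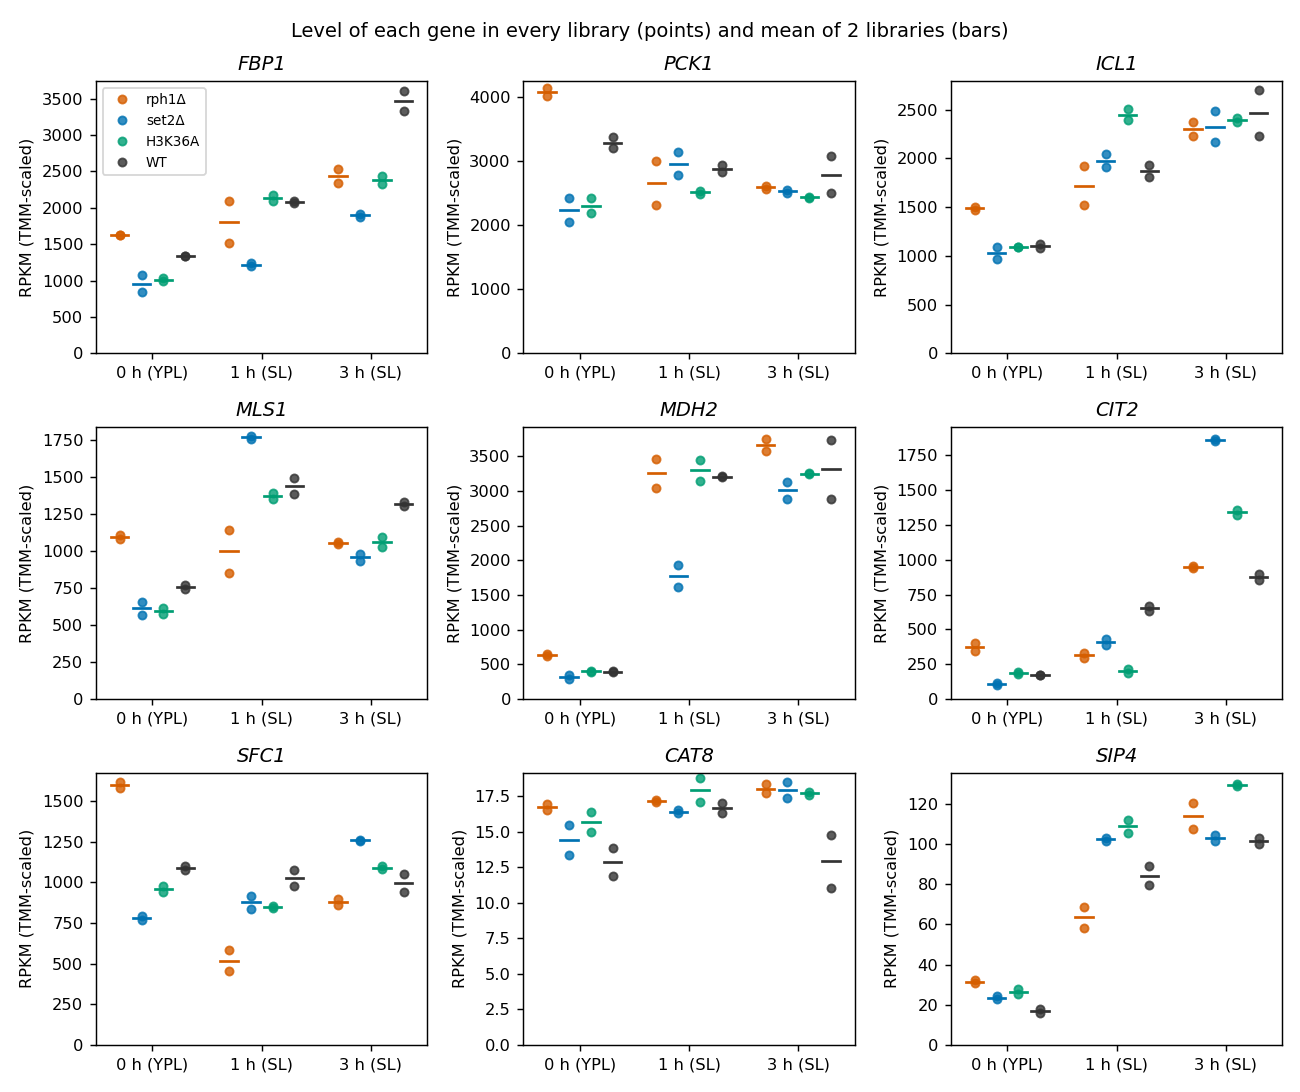
Level of each of the 9 genes in scaled RPKM (vertical axis, from 0) by time (horizontal axis), with a point for each library and a bar at the mean of the 2 libraries of a group. MDH2 stands low at 0 h and high at 1 h and 3 h in all genotypes, while CIT2 at 1 h lies between 189.6 and 430.2 in the mutants and at 671 and 632 in WT.

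In WT cells, 7 of the 9 genes rose and none fell by 1 h in minimal medium, where 37.3% of all genes tested rose and 34.8% fell (edgeR's quasi-likelihood test with Benjamini-Hochberg adjustment, adjusted p under 0.05). The median log2 change of the 9 was 0.77, against 0.06 over all genes. In RNA from whole cultures, a change in every cell and a change in a share of the cells cannot be told apart. Most genes of the genome were thus called in one direction or the other, and the sizes are given gene by gene.

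Of the glyoxylate cycle enzymes, MDH2 and CIT2 rose more than ICL1 and MLS1 in WT. MDH2, the cytosolic malate dehydrogenase, had 403 and 389 scaled RPKM in WT at 0 h, 3218 and 3195 at 1 h and 3741 and 2889 at 3 h. It rose 8.10-fold in the first hour, a log2 change of 3.02 ± 0.12 (SE; edgeR adjusted p = 2.78e-18), and its groups at 0 h and later did not overlap. CIT2, the peroxisomal citrate synthase that feeds acetyl units into the cycle, had 175 and 171 at 0 h, 671 and 632 at 1 h and 895 and 852 at 3 h in WT. It rose by 1.91 ± 0.09 on the log2 scale by 1 h (edgeR adjusted p = 3.4e-16) and again by 0.42 ± 0.09 between 1 h and 3 h. That second rise was not called with library totals in place of TMM scaling (0.13, edgeR adjusted p = 0.187). ICL1, the isocitrate lyase that makes glyoxylate, had 1122 and 1077 at 0 h, 1931 and 1813 at 1 h and 2705 and 2231 at 3 h in WT. Its log2 change was 0.77 ± 0.10 at 1 h and 1.17 ± 0.10 at 3 h, each over 0 h. MLS1, the malate synthase that joins glyoxylate to an acetyl unit, had 769 and 744 at 0 h, 1497 and 1389 at 1 h and 1330.0 and 1305 at 3 h in WT. It rose by 0.93 ± 0.09 by 1 h and was not called between 1 h and 3 h (-0.13 ± 0.09).

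The gluconeogenic enzymes differed from each other. FBP1, the fructose bisphosphatase that bypasses phosphofructokinase, had 1342 and 1341 scaled RPKM at 0 h, 2099.5 and 2071 at 1 h and 3327 and 3603 at 3 h in WT. It rose at each step, by 0.64 ± 0.11 by 1 h and by 0.73 ± 0.11 between 1 h and 3 h. PCK1 had 3204 and 3374 at 0 h, 2936 and 2826 at 1 h and 3074 and 2506 at 3 h, and its libraries at 1 h and 3 h overlapped. Its log2 change was -0.19 ± 0.11 at 1 h (edgeR adjusted p = 0.109). At 3 h it was lower than at 0 h, just past the threshold (-0.24 ± 0.11, edgeR adjusted p = 0.0488), and the call was lost without WT 0 h replicate 1 (-0.27), WT 0 h replicate 2 (-0.20) or WT 3 h replicate 2 (-0.12). Without WT 3 h replicate 1 it was -0.39 and still called. The call was also lost with a replicate block (-0.23, edgeR adjusted p = 0.0509). SFC1, the mitochondrial carrier that exchanges succinate made by the cycle for fumarate, had 1101 and 1076 at 0 h, 974 and 1072 at 1 h and 1048 and 941 at 3 h and was not called at either time in WT.

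Of the regulators, SIP4 had 17.9 and 16.1 scaled RPKM at 0 h, 88.8 and 79.7 at 1 h and 100.2 and 103 at 3 h in WT. It rose 4.95-fold by 1 h (2.31 ± 0.09, edgeR adjusted p = 8.79e-18). Between 1 h and 3 h its change of 0.27 ± 0.08 was called, but it was -0.02 with library totals and 0.19 without WT 1 h replicate 2, and neither was called. CAT8, which is known to activate SIP4, had 11.9 and 13.9 at 0 h, 16.3 and 17.0 at 1 h and 14.8 and 11.1 at 3 h. Its log2 change was 0.37 ± 0.11 at 1 h over 0 h and -0.37 ± 0.11 at 3 h over 1 h. These calls were lost without WT 0 h replicate 1 (0.26), and without WT 1 h replicate 2 or WT 3 h replicate 2 (-0.34 and -0.15). Without WT 3 h replicate 1 the CAT8 change from 1 h to 3 h was -0.59 and still called.

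By 3 h in WT, 6 of the 9 genes were higher and 1 lower than at 0 h, where 35.6% of all genes were higher and 34% lower, with a median log2 change of 1.17 against 0.02 over all genes. Median-of-ratios scaling and library totals each gave 6 higher and 2 lower. Of the 6503 genes tested, the former called 2144 higher and 2373 lower, and the latter 1914 and 2577. Between 1 h and 3 h, 4 rose and 1 fell, where 27.4% of all genes rose and 18.7% fell. But library totals gave 1 higher and 4 lower, beside 1010 higher and 2623 lower of the 6503 genes tested. That scaling moved the median of all genes by 0.10 at 1 h over 0 h and by -0.27 at 3 h over 1 h in WT, by 0.29 at 1 h over 0 h in set2Δ, and by 0.23 for set2Δ over WT at 3 h on the log2 scale. Changes below are relative to the TMM-scaled libraries. Without WT 3 h replicate 1 the ICL1 change from 1 h to 3 h in WT was 0.25, and with library totals it was 0.11, neither of them called, against 0.40 ± 0.10 with all libraries.

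The counts of the surrounding pathway genes at 1 h in WT stand beside the 37.3% of all genes that rose and the 34.8% that fell. The split counts of the isozymes, the opposing steps and the regulators lie near these shares and are no result about those lists, so they are given as counts. Of 4 other genes activated through Cat8, all 4 rose at 1 h, among them ACS1, an acetyl-CoA synthetase (3.63 ± 0.09), and ADH2, the alcohol dehydrogenase that consumes ethanol (2.37 ± 0.11). Of 11 isozymes and partner enzymes, 5 rose and 5 fell at 1 h. CIT3, a mitochondrial citrate and methylcitrate synthase (3.08 ± 0.08), and ICL2, a methylisocitrate lyase (2.45 ± 0.07), were the highest of these, and MDH1, the mitochondrial malate dehydrogenase (-1.53 ± 0.07), and PYC1, a pyruvate carboxylase (-2.19 ± 0.12), the lowest. Library totals gave 6 and 5. CIT2 and CIT1 share 74.0% of aligned coding bases and MLS1 and DAL7 share 74.1%, with no identical run over 21 bases. The sources used here do not say how reads shared between genes were counted.

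The 10 glycolysis genes whose enzymes also serve gluconeogenesis differed between the times in WT. At 1 h 3 of them rose and 6 fell, with ENO1, an enolase (2.0 ± 0.11), the highest and TDH2, a glyceraldehyde-phosphate dehydrogenase (-2.33 ± 0.11), the lowest. At 3 h all 10 were higher than at 0 h, where 35.6% of all genes were, with a median of 1.36, or 9 of 10 with library totals. ENO1 and ENO2, and the TDH genes, are near-identical, so their separate levels are uncertain. Of 10 genes for the steps that oppose gluconeogenesis, 4 rose and 5 fell at 1 h, and the hexokinase gene HXK2 (-4.30 ± 0.10) was the lowest.

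Of 8 genes of the GID ubiquitin ligase, which marks Fbp1, Pck1, Icl1 and Mdh2 proteins for destruction when glucose returns, 7 rose and 1 fell at 1 h in WT, with a median of 1.64. GID8 (2.19 ± 0.10) and FYV10 (1.82 ± 0.10) were the highest, and VID24, the substrate receptor for these enzymes, fell (-1.45 ± 0.13). Of 17 regulators of glucose repression and derepression, 3 rose and 8 fell, with MIG1 (0.69 ± 0.11) the highest and HAP4, the activator subunit of the respiratory Hap complex (-2.59 ± 0.13), the lowest. The 4 genes of the retrograde pathway, RTG1, RTG2, RTG3 and MKS1, were not called at 1 h or 3 h in WT, with medians of 0.08 and -0.07, beside the rise of CIT2. With library totals 2 of the 4 were higher at 1 h, beside 2612 of the 6503 genes tested, and 2 lower at 3 h, beside 2577.

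**Figure D3:**
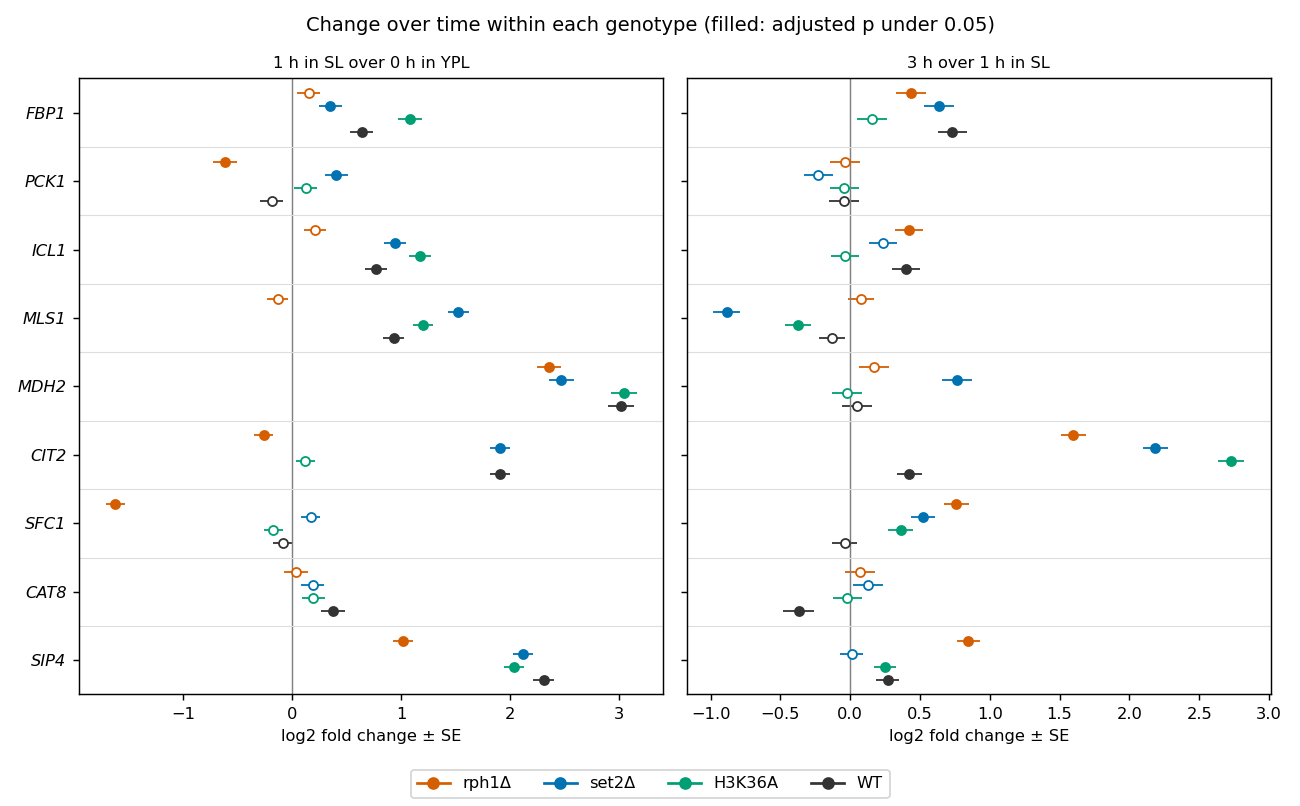
Log2 fold change ± SE of the 9 genes over time within each genotype, at 1 h over 0 h (left) and at 3 h over 1 h (right), with filled points for an adjusted p under 0.05. CIT2 changed by -0.26 in rph1Δ, 1.91 in set2Δ, 0.12 in H3K36A and 1.91 in WT in the first hour.

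In rich medium, rph1Δ cells had higher levels of most of these genes than WT cells. Of the 9, 7 were higher and none lower, where 2.41% of all genes tested were higher and 2.41% lower, and the median log2 difference was 0.53, against 0.00 over all genes. CIT2 had 405 and 347 scaled RPKM in rph1Δ, against 175 and 171 in WT, a 2.17-fold higher level (1.12 ± 0.09, edgeR adjusted p = 1.76e-09). SIP4 had 32.1 and 30.6 in rph1Δ, against 17.9 and 16.1 in WT (0.88 ± 0.10, edgeR adjusted p = 5.57e-07). MDH2 had 656 and 615 in rph1Δ, against 403 and 389 in WT (0.68 ± 0.11). Both rph1Δ libraries lay above both WT libraries for all 9 genes, whether called or not. The share of all genes with such a separation was not counted, so this is a description and no result about the 9. SFC1 (0.55 ± 0.09), MLS1 (0.53 ± 0.09), ICL1 (0.44 ± 0.10) and CAT8 (0.38 ± 0.11) were also higher. FBP1 (0.28 ± 0.11, edgeR adjusted p = 0.168) and PCK1 (0.31 ± 0.11, edgeR adjusted p = 0.0952) were not called. Summed over the 9 genes, the level was 10917 and 10984 in the rph1Δ libraries, against 8147 and 8203 in WT. The ICL1 call was lost without WT 0 h replicate 1 (0.47), WT 0 h replicate 2 (0.41) or rph1Δ 0 h replicate 1 (0.42). The CAT8 call, at an adjusted p of 0.0497, was lost without WT 0 h replicate 1 (0.27), rph1Δ 0 h replicate 1 (0.40) or rph1Δ 0 h replicate 2 (0.36), under median-of-ratios scaling (0.36) and with a replicate block (0.38, edgeR adjusted p = 0.0556).

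After 1 h in minimal medium no gene of the 9 was higher in rph1Δ than in WT and 4 were lower, where 5.9% of all genes were higher and 9.27% lower, with a median of -0.21 against 0.00 over all genes. CIT2 had 332 and 294 scaled RPKM in rph1Δ, against 671 and 632 in WT (-1.06 ± 0.09, edgeR adjusted p = 2.39e-09). SFC1 had 454 and 582 in rph1Δ, against 974 and 1072 in WT (-0.98 ± 0.09, edgeR adjusted p = 6.33e-09). MLS1 had 855 and 1141 in rph1Δ, against 1497 and 1389 in WT (-0.53 ± 0.09). The libraries of the genotypes did not overlap for these 3 genes, nor for SIP4 and the uncalled CAT8. The share of all genes without overlap was not counted, so this too is only a description. SIP4 had 58.3 and 68.6 in rph1Δ, against 88.8 and 79.7 in WT (-0.41 ± 0.08). The 2 rph1Δ libraries at 1 h stood apart from each other: 8 of the 9 genes were lower in replicate 1, and the median ratio of replicate 1 to replicate 2 was 0.790 over the 9. Without that library the SIP4 difference was -0.30 and was not called (edgeR adjusted p = 0.0586), and the other 3 were still called, with MLS1 at -0.34.

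The first hour ran differently in rph1Δ and in WT. This was tested as an interaction, the change in the mutant less the change in WT. It equals the difference from WT at 1 h less that at 0 h, so the higher rph1Δ levels at 0 h lower it. For 7 of the 9 genes it was called lower and for none higher, where 5.23% of all genes were called lower and 3.29% higher, and the median was -0.66 against -0.02 over all genes. In rph1Δ itself 2 genes rose by 1 h and 3 fell, where 37.4% of all genes rose and 34.3% fell. The count with library totals was 4 and 2, beside 2777 higher and 1985 lower of the 6503 genes tested. SFC1 had 1616 and 1579 scaled RPKM in rph1Δ at 0 h, 454 and 582 at 1 h and 858 and 897 at 3 h. It fell by 1 h (-1.62 ± 0.09, edgeR adjusted p = 4.93e-15), where it was not called in WT (-0.09 ± 0.09), and the interaction was -1.54 ± 0.12 (edgeR adjusted p = 1.66e-09). CIT2 had 405 and 347 at 0 h, 332 and 294 at 1 h and 940.4 and 955 at 3 h in rph1Δ. Its first-hour change was -0.26 ± 0.09 in rph1Δ, against 1.91 ± 0.09 in WT, an interaction of -2.17 ± 0.13 (edgeR adjusted p = 6.2e-12). The fall of CIT2 within rph1Δ was lost without rph1Δ 0 h replicate 1 (-0.15) or rph1Δ 1 h replicate 2 (-0.18) and with library totals (-0.11), while the interaction was called in all of these. PCK1 also fell in rph1Δ (-0.62 ± 0.11), but its interaction was not called (-0.43 ± 0.15, edgeR adjusted p = 0.0805).

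Among the genes that rose in rph1Δ, SIP4 changed by 1.02 ± 0.09 in rph1Δ, against 2.31 ± 0.09 in WT, an interaction of -1.29 ± 0.13 (edgeR adjusted p = 6.85e-08). MDH2 rose in rph1Δ as well, by 2.36 ± 0.11, against 3.02 ± 0.12 in WT (interaction -0.66 ± 0.15). MDH2 was higher in rph1Δ than in WT at 0 h, and at 1 h its difference of 0.02 ± 0.11 was not called. The interaction of MLS1 was -1.07 ± 0.13, that of ICL1 -0.56 ± 0.14 and that of FBP1 -0.49 ± 0.15. Without rph1Δ 1 h replicate 1 the last 2 were -0.40 and -0.27 and were not called, while FBP1 was -0.74 without rph1Δ 1 h replicate 2. The FBP1 call was also lost without any of 6 other libraries of the 4 groups (both WT and both rph1Δ libraries at 0 h and both WT libraries at 1 h), with edgeR adjusted p of 0.0973 to 0.123, and under median-of-ratios scaling (-0.48). The ICL1 call was also lost without WT 0 h replicate 2, rph1Δ 0 h replicate 1 or WT 1 h replicate 1 (-0.53, -0.54 and -0.51).

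At 3 h the SFC1 (-0.18 ± 0.09) and SIP4 (0.16 ± 0.08) differences between rph1Δ and WT, lower at 1 h, were not called. Of the 9 genes, 1 was higher and 2 lower than in WT, where 11.6% of all genes were higher and 16.4% lower, and library totals gave 3 higher and 1 lower. Between 1 h and 3 h in rph1Δ, 5 genes rose and none fell, where 25.1% of all genes rose and 16.3% fell. For this step library totals gave 3 higher and 1 lower, beside 941 higher and 2442 lower over all genes tested. CIT2 rose by 1.60 ± 0.09 (edgeR adjusted p = 5.78e-14), and its level at 3 h was 940.4 and 955 in rph1Δ, against 895 and 852 in WT (0.12 ± 0.09, edgeR adjusted p = 0.332). SIP4 (0.84 ± 0.08) and SFC1 (0.76 ± 0.09) rose too. These 3 late rises were larger than in WT, with interactions of 1.17 ± 0.12 for CIT2, 0.80 ± 0.12 for SFC1 and 0.57 ± 0.12 for SIP4, where 3.51% of all genes were called higher and 2.49% lower. FBP1 (0.43 ± 0.11) and ICL1 (0.42 ± 0.10) also rose between 1 h and 3 h, at 0.22 and 0.26 without rph1Δ 1 h replicate 1 and 0.17 and 0.16 with library totals, where neither was called, and FBP1 stood at 0.69 without rph1Δ 1 h replicate 2.

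At 3 h FBP1 had 2339 and 2531 scaled RPKM in rph1Δ, against 3327 and 3603 in WT, and was lower (-0.51 ± 0.11, edgeR adjusted p = 0.00136). MLS1 had 1046 and 1063 in rph1Δ, against 1330.0 and 1305 in WT (-0.32 ± 0.09), a call lost with library totals (-0.19) and without WT 3 h replicate 2, rph1Δ 3 h replicate 1 or rph1Δ 3 h replicate 2 (-0.35, -0.31 and -0.33). Over the whole 3 h, the change in rph1Δ less that in WT was called lower for 7 of the 9 genes and higher for none, where 3.75% of all genes were called lower and 3.01% higher, with a median of -0.72. It was -1.0 ± 0.13 for CIT2, -0.86 ± 0.13 for MLS1, -0.79 ± 0.15 for FBP1, -0.73 ± 0.12 for SFC1 and -0.72 ± 0.13 for SIP4. For ICL1 and MDH2 it was -0.54 ± 0.14 and -0.54 ± 0.15. Each of these 2 calls was lost without either WT or either rph1Δ library at 0 h, without WT 3 h replicate 1 or without either rph1Δ library at 3 h. Without WT 3 h replicate 1 they were -0.39 and -0.34, and with library totals the MDH2 value was -0.46 and not called. The same WT and rph1Δ libraries at 0 h enter this test, the first-hour interaction and the comparison at 0 h, so these are not separate findings.

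set2Δ cells started lower than WT. In rich medium 6 of the 9 genes were lower in set2Δ and 1 was higher, where 8.73% of all genes were lower and 13.3% higher, and the median was -0.31 against 0.00 over all genes. CIT2 had 117 and 101 scaled RPKM in set2Δ, against 175 and 171 in WT (-0.67 ± 0.09, edgeR adjusted p = 6.82e-06). PCK1 had 2044 and 2432 in set2Δ, against 3204 and 3374 in WT (-0.56 ± 0.11), and FBP1 had 1073 and 843 in set2Δ, against 1342 and 1341 in WT (-0.49 ± 0.11). SFC1 was lower as well (-0.48 ± 0.09), and SIP4 was the gene that was higher (0.47 ± 0.10). MLS1 (-0.30 ± 0.09) and MDH2 (-0.31 ± 0.11) were lower near the threshold. Both calls were lost without WT 0 h replicate 1 (-0.27 and -0.28) or WT 0 h replicate 2 (-0.32 and -0.34), that of MLS1 also without set2Δ 0 h replicate 2 (-0.20) and that of MDH2 without set2Δ 0 h replicate 1 (-0.15) and with library totals (-0.28). Without set2Δ 0 h replicate 2 the MDH2 difference was -0.47 and the FBP1 difference -0.32, both still called. The 2 set2Δ libraries at 0 h differed most of all replicate pairs, at a chi-square of 14.9 per degree of freedom over genes. With only the 2 groups compared in the fit 4 of the 9 genes were called, the losses being MLS1, MDH2 and SIP4 (0.47, edgeR adjusted p = 0.0508). That fit called 488 of the 6503 genes tested higher and 168 lower, against 867 and 568 in the fit of all groups.

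At 1 h the set2Δ cells fell short of WT in MDH2 and FBP1. MDH2 had 1613 and 1935 scaled RPKM in set2Δ, against 3218 and 3195 in WT (-0.85 ± 0.11, edgeR adjusted p = 3.75e-07). FBP1 had 1239 and 1200.3 in set2Δ, against 2099.5 and 2071 in WT (-0.77 ± 0.11, edgeR adjusted p = 1.48e-06). CIT2 had 388 and 430.2 in set2Δ, against 671 and 632 in WT (-0.67 ± 0.09). In all, 4 of the 9 were lower and 2 higher, where 27.3% of all genes were lower and 20.4% higher. Library totals gave 3 lower and 4 higher, beside 906 lower and 2194 higher of the 6503 genes tested. MLS1 had 1779.5 and 1759.7 in set2Δ, against 1497 and 1389 in WT (0.29 ± 0.09), and SIP4 had 103 and 102 in set2Δ, against 88.8 and 79.7 in WT (0.28 ± 0.08). The calls of MLS1, SIP4 and SFC1 (-0.22 ± 0.09) were lost without WT 1 h replicate 2, at 0.24, 0.20 and -0.15, which left 3 calls. Those of MLS1 and SFC1 were also lost without set2Δ 1 h replicate 1 (0.29 and -0.16), and that of SFC1 under median-of-ratios scaling (-0.17) and with library totals (0.00).

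Within set2Δ, 7 genes rose in the first hour and none fell, where 34.1% of all genes rose and 34.9% fell. PCK1 rose by 0.41 ± 0.11 in set2Δ, while it was not called in WT, and its interaction was 0.60 ± 0.15 (edgeR adjusted p = 0.00337). MLS1 rose by 1.52 ± 0.10 in set2Δ, against 0.93 ± 0.09 in WT (interaction 0.59 ± 0.13). MDH2 rose by 2.47 ± 0.11 in set2Δ, against 3.02 ± 0.12 in WT (interaction -0.55 ± 0.15, -0.38 without set2Δ 0 h replicate 2 and -0.42 without set2Δ 1 h replicate 1, and -0.36 with library totals, none of them called). The interaction of CIT2 was 0.00 ± 0.13, so its lower level in set2Δ at 0 h and at 1 h went with a like rise. These were the 3 called interactions of the first hour, 2 higher and 1 lower, where 10.9% of all genes were called higher and 17.2% lower. Under library totals 4 were higher and none lower, beside 1196 higher and 612 lower of the 6503 genes tested. The FBP1 rise within set2Δ (0.35 ± 0.11) was 0.18 and not called without set2Δ 0 h replicate 2, and 0.52 without set2Δ 0 h replicate 1.

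Between 1 h and 3 h the change in set2Δ differed from that in WT for 5 of the 9 genes. CIT2 had 117 and 101 scaled RPKM at 0 h, 388 and 430.2 at 1 h and 1866 and 1854 at 3 h in set2Δ. It rose by 2.19 ± 0.09 between 1 h and 3 h in set2Δ, against 0.42 ± 0.09 in WT, an interaction of 1.76 ± 0.12 (edgeR adjusted p = 1.05e-10). MDH2 also rose late in set2Δ (0.76 ± 0.11, interaction 0.71 ± 0.15), as did SFC1 (0.52 ± 0.09, interaction 0.56 ± 0.12). MLS1 fell to 934 and 982 at 3 h, against 1779.5 and 1759.7 at 1 h in set2Δ (-0.88 ± 0.09, interaction -0.75 ± 0.13, edgeR adjusted p = 0.000171). In set2Δ 4 genes rose and 1 fell between these times, where 27% of all genes rose and 19.4% fell. Median-of-ratios scaling gave 4 and 2, beside 1526 higher and 1535 lower of the 6503 genes tested. With library totals it was 4 and 3, beside 979 and 2524. SIP4 stood at 0.01 ± 0.08 as reported, and at -0.26 and called with library totals. Of the late interactions 4 were higher and 1 lower, where 10.7% of all genes were higher and 10.5% lower. The fifth of them, CAT8 (0.49 ± 0.15), was 0.26 without WT 3 h replicate 2 and was also lost without WT 1 h replicate 2 (0.47), set2Δ 1 h replicate 1 (0.50), set2Δ 1 h replicate 2 (0.49) or set2Δ 3 h replicate 2 (0.45).

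At 3 h, 3 of the 9 genes were higher and 2 lower in set2Δ than in WT, where 20.6% of all genes were higher and 27.8% lower. CIT2 had 1866 and 1854 scaled RPKM in set2Δ, against 895 and 852 in WT, and was 2.13-fold higher (1.09 ± 0.09, edgeR adjusted p = 4.44e-10). FBP1 had 1918 and 1869.5 in set2Δ, against 3327 and 3603 in WT (-0.87 ± 0.11, edgeR adjusted p = 3.64e-07). CIT2 thus stood below WT at 0 h and 1 h and above it at 3 h, while FBP1 stood below WT at all 3 times. MLS1 was lower (-0.46 ± 0.09). It was -0.21 and still called with library totals, and -0.21 and not called by limma on log2(FPKM + 1). SFC1 (0.34 ± 0.09) and CAT8 (0.47 ± 0.11) were higher. Over the whole 3 h, the change less that in WT was called higher for CIT2 (1.76 ± 0.13), SFC1 (0.82 ± 0.12) and PCK1 (0.41 ± 0.15). It was called lower for SIP4 (-0.45 ± 0.13), where 13.6% of all genes were called higher and 19.1% lower. Using library totals, 4 were higher and none lower, beside 1589 higher and 654 lower of the 6503 genes tested. The PCK1 call was lost without each of 6 of the 8 libraries (both WT libraries at 0 h, set2Δ 0 h replicate 1, WT 3 h replicate 2 and both set2Δ libraries at 3 h), at 0.28 to 0.45, and the SIP4 call without WT 0 h replicate 2 (-0.37) and with library totals (-0.23).

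**Figure D4:**
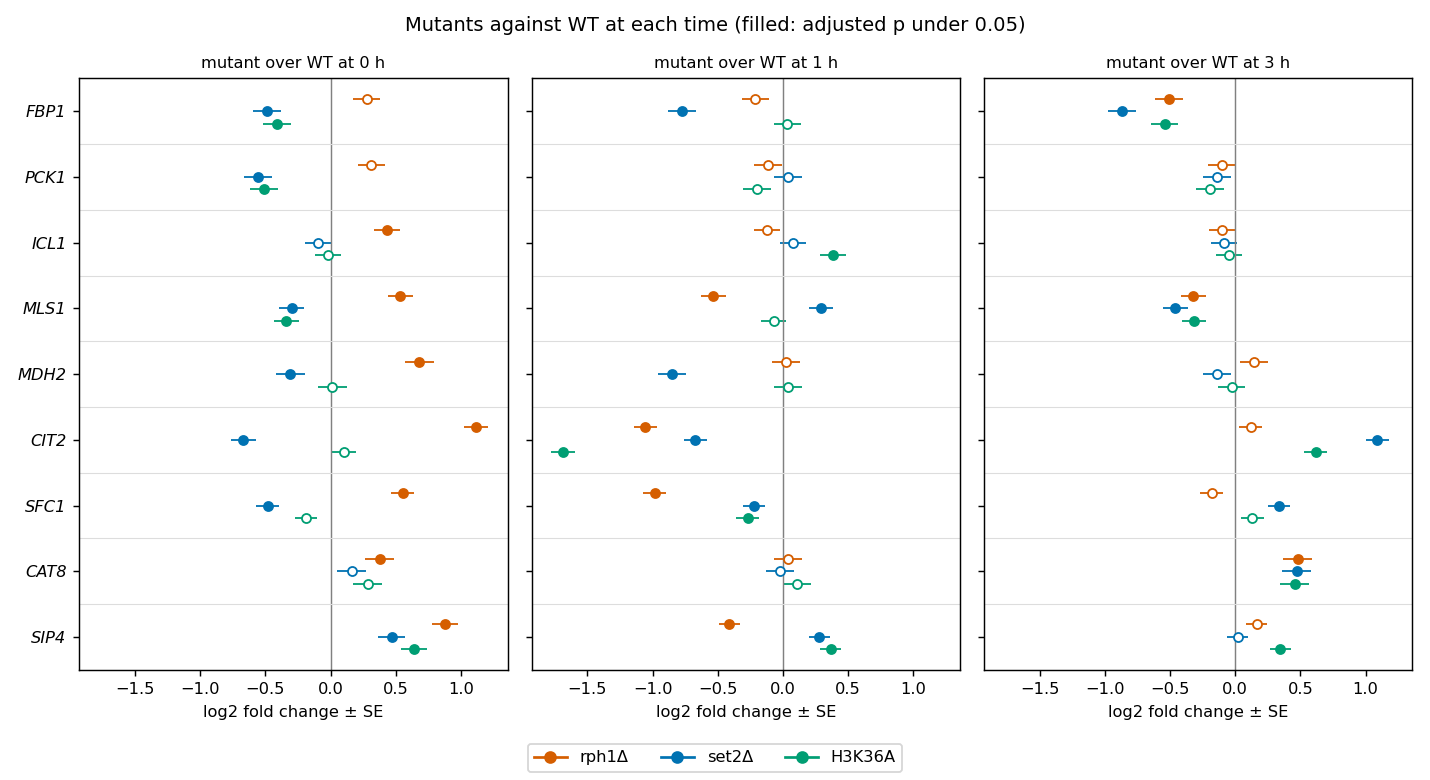
Log2 fold change ± SE of the 9 genes in each mutant over WT at 0 h, 1 h and 3 h, with filled points for an adjusted p under 0.05. At 0 h the rph1Δ points lie right of 0 for all 9 genes, at 1 h CIT2 lies left of 0 in all 3 mutants, and at 3 h CIT2 is at 0.12 in rph1Δ, 1.09 in set2Δ and 0.62 in H3K36A.

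In H3K36A cells, the largest difference in level from WT among the 9 genes at the 3 times was that of CIT2 at 1 h. CIT2 had 195 and 177 scaled RPKM at 0 h, 189.6 and 215 at 1 h and 1361 and 1319 at 3 h in H3K36A. At 1 h it was 3.22-fold lower than the 671 and 632 of WT (-1.69 ± 0.09, edgeR adjusted p = 8.2e-14). In the first hour its change in H3K36A was 0.12 ± 0.09, which was not called (edgeR adjusted p = 0.238), against 1.91 ± 0.09 in WT, an interaction of -1.79 ± 0.13 (edgeR adjusted p = 5.01e-11). Between 1 h and 3 h it rose by 2.73 ± 0.09 in H3K36A, an interaction of 2.30 ± 0.13. At 3 h it was higher than in WT (0.62 ± 0.09, edgeR adjusted p = 3.8e-06).

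The other genes of H3K36A were compared with WT in the same way. At 0 h, 1 of the 9 genes was higher than in WT and 3 were lower, where 13.4% of all genes were higher and 11.1% lower. Scaled by library totals it was 2 and 3, beside 1094 higher and 481 lower of the 6503 genes tested. PCK1 had 2423 and 2187 scaled RPKM in H3K36A, against 3204 and 3374 in WT (-0.51 ± 0.11, edgeR adjusted p = 0.000686), and FBP1 (-0.41 ± 0.11) and MLS1 (-0.34 ± 0.09) were lower too, while SIP4 was higher (0.64 ± 0.10). The MLS1 call was lost without WT 0 h replicate 1 (-0.32) or H3K36A 0 h replicate 2 (-0.29). In the first hour 5 genes rose in H3K36A and none fell, where 36.3% of all genes rose and 36.3% fell. With library totals 8 rose, beside 2830 higher and 1955 lower of the 6503 genes tested. MDH2 changed by 3.04 ± 0.12 in H3K36A and stood at 0.04 ± 0.11 against WT at 1 h, a difference that was not called. ICL1 had 2394 and 2504 at 1 h in H3K36A, against 1931 and 1813 in WT (0.39 ± 0.10), and SIP4 had 112 and 106 in H3K36A, against 88.8 and 79.7 in WT (0.37 ± 0.08). At 1 h 2 genes were higher and 2 lower than in WT, where 20% of all genes were higher and 26.7% lower, but the SFC1 call (-0.27 ± 0.09) was lost under median-of-ratios scaling (-0.21), which gave 2 and 1, with library totals (-0.10), which gave 3 and 1, and without WT 1 h replicate 2 (-0.20) or H3K36A 1 h replicate 1 (-0.26).

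Besides CIT2, the first-hour interaction of H3K36A was called for FBP1 (0.44 ± 0.15) and ICL1 (0.41 ± 0.14), 2 higher and, with CIT2, 1 lower, where 9.9% of all genes were called higher and 18% lower. The library-total count was 4 and 1, beside 848 higher and 759 lower of the 6503 genes tested. The FBP1 call was lost without any of 6 of the 8 libraries (both WT libraries at 0 h and at 1 h, H3K36A 0 h replicate 2 and H3K36A 1 h replicate 1), at 0.41 to 0.45. The ICL1 call was lost without any of 7 of the 8, all but WT 1 h replicate 1, at 0.36 to 0.44. Between 1 h and 3 h 3 genes rose and 1 fell in H3K36A, where 27.2% of all genes rose and 21.7% fell. There library totals gave 1 and 3, beside 1111 higher and 2467 lower over all genes tested. MLS1 fell (-0.38 ± 0.09), SFC1 rose (0.36 ± 0.09, 0.13 and not called with library totals), and SIP4 rose (0.25 ± 0.08). The SIP4 call was lost without H3K36A 1 h replicate 2 (0.21) or H3K36A 3 h replicate 1 (0.24) and under both other scalings (0.19 and 0.01).

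The late interactions of H3K36A were called higher for CIT2 and SFC1 (0.40 ± 0.12) and lower for FBP1 (-0.58 ± 0.15) and ICL1 (-0.43 ± 0.14), where 9.72% of all genes were higher and 10.2% lower. FBP1 had 2325 and 2434 scaled RPKM at 3 h in H3K36A, against 3327 and 3603 in WT (-0.54 ± 0.11, edgeR adjusted p = 0.000192). The ICL1 interaction was -0.29 without WT 3 h replicate 1, and was lost too without WT 1 h replicate 2, H3K36A 1 h replicate 2 or either H3K36A library at 3 h (-0.44 to -0.29 over all 5). That of SFC1 was lost without WT 1 h replicate 2 (0.33), WT 3 h replicate 2 (0.29), H3K36A 1 h replicate 1 or H3K36A 3 h replicate 1 (0.39 for both). At 3 h 3 genes were higher than in WT and 2 lower, where 18.7% of all genes were higher and 27.6% lower. It was 4 and 1 with library totals, beside 2210 higher and 736 lower of the 6503 genes tested. MLS1 was lower (-0.32 ± 0.09), a call lost with library totals (-0.08) and without H3K36A 3 h replicate 1 (-0.27). SIP4 was higher (0.35 ± 0.08). Over the whole 3 h the interaction was called for CIT2 alone of the 9 (0.51 ± 0.13), higher, where 10.6% of all genes were higher and 16.6% lower.

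CAT8 was higher than in WT at 3 h in all 3 mutants, at 0.48 ± 0.11 in rph1Δ, 0.47 ± 0.11 in set2Δ and 0.45 ± 0.11 in H3K36A. Its levels were 18.3 and 17.7 scaled RPKM in rph1Δ, 17.4 and 18.5 in set2Δ, 17.6 and 17.8 in H3K36A and 14.8 and 11.1 in WT. The 3 comparisons share the WT libraries, and without WT 3 h replicate 2 none of the 3 was called, at 0.27, 0.29 and 0.27. Without that library fewer of the 9 genes, and fewer of all genes, were called for rph1Δ over WT at 3 h, so the drop was not particular to the 9.

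**Figure D5:**
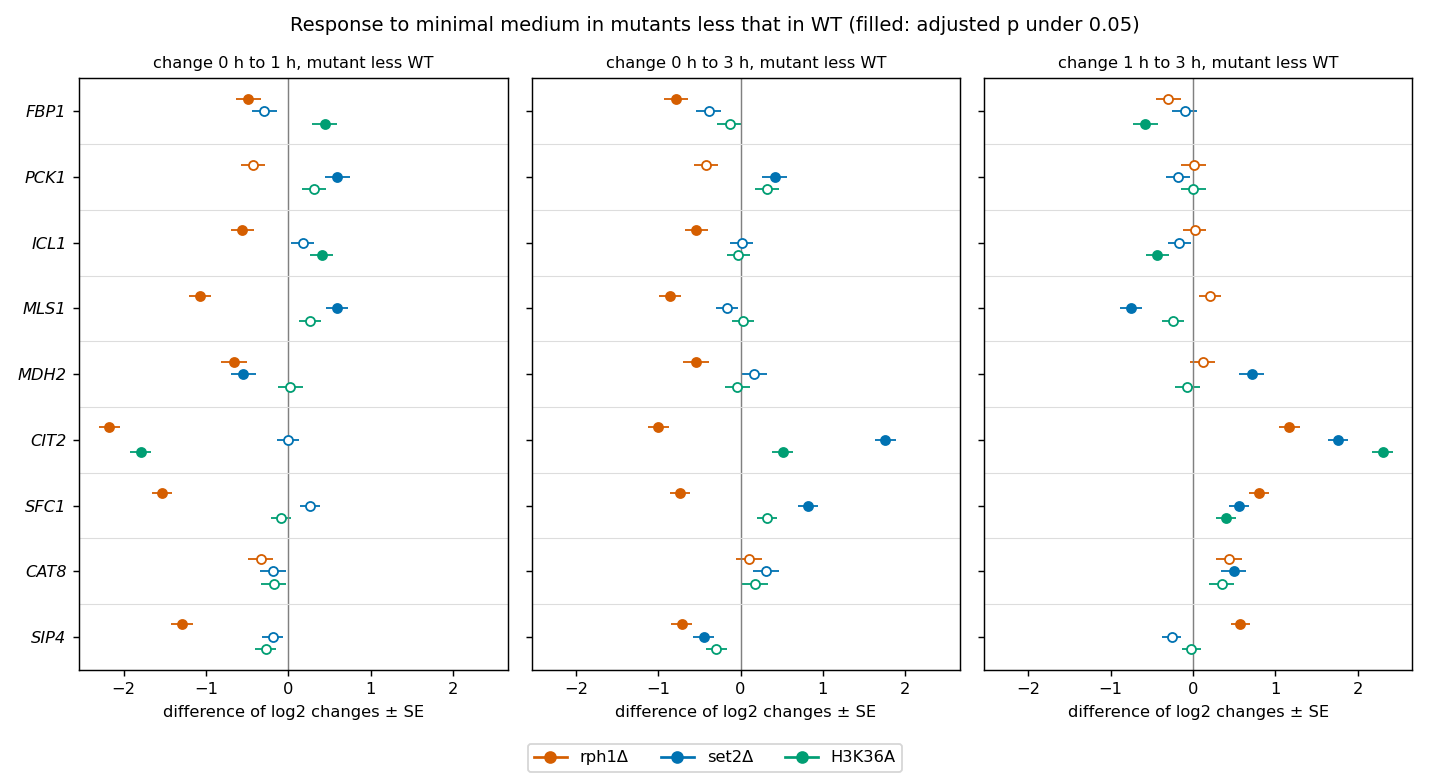
Difference between the log2 change in each mutant and that in WT (± SE) for 0 h to 1 h, 0 h to 3 h and 1 h to 3 h, with filled points for an adjusted p under 0.05. In the first hour the rph1Δ points lie left of 0 for all 9 genes, with CIT2 at -2.17, and between 1 h and 3 h CIT2 lies right of 0 in all 3 mutants.

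Set2 is the enzyme that methylates lysine 36, and the label of H3K36A names a change of that lysine to alanine, so set2Δ was also compared with H3K36A directly. At 0 h 1 gene of the 9 was lower in set2Δ than in H3K36A and none higher, where 1.18% of all genes were lower and 1.54% higher, and this was CIT2, at 117 and 101 scaled RPKM in set2Δ, against 195 and 177 in H3K36A (-0.77 ± 0.09, edgeR adjusted p = 1.06e-05). At 1 h 2 genes were higher and 3 lower in set2Δ, where 14.8% of all genes were higher and 14.6% lower. CIT2 had 388 and 430.2 in set2Δ, against 189.6 and 215 in H3K36A (1.02 ± 0.09, edgeR adjusted p = 1.97e-09), and MDH2 had 1613 and 1935 in set2Δ, against 3141 and 3451 in H3K36A (-0.89 ± 0.11, edgeR adjusted p = 4.1e-07). FBP1 was lower (-0.81 ± 0.11) and MLS1 higher (0.37 ± 0.09) in set2Δ. ICL1 was lower as well (-0.31 ± 0.10), a call lost without set2Δ 1 h replicate 1 (-0.26) or H3K36A 1 h replicate 2 (-0.28). At 3 h CIT2 was higher in set2Δ (0.47 ± 0.09, edgeR adjusted p = 0.00153) and SIP4 lower (-0.33 ± 0.08), where 2.23% of all genes were higher and 2.46% lower. The SIP4 call was lost without any of the 4 libraries, at -0.35 to -0.31. PCK1 differed between these genotypes by -0.04 ± 0.11, 0.24 ± 0.11 and 0.05 ± 0.11 at 0 h, 1 h and 3 h, none of them called.

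The pathway's neighbours were set beside the 9 genes in the mutants. Of the 10 glycolysis genes shared with gluconeogenesis, 10, 9 and 9 were lower in rph1Δ than in WT at 0 h, 1 h and 3 h. Over all genes 2.41%, 9.27% and 16.4% were lower there. In set2Δ 5, 10 and 10 were lower, where 8.73%, 27.3% and 27.8% of all genes were. In H3K36A 10, 10 and 10 were lower, where 11.1%, 26.7% and 27.6% of all genes were. None of the 10 was higher in any of these comparisons. Library totals and median-of-ratios scaling each gave 9 or more in H3K36A and rph1Δ and in set2Δ at 1 h and 3 h, and 5 or 6 in set2Δ at 0 h. Their medians at 1 h were -0.77 in rph1Δ, -1.60 in set2Δ and -2.25 in H3K36A, with the enolase gene ENO2 the lowest in each (-1.33 ± 0.11, -2.57 ± 0.11 and -3.95 ± 0.12). The 9 genes had medians of -0.21, -0.02 and 0.03 there. IDP2, a cytosolic isocitrate dehydrogenase, is in both of the next lists. Of the 4 other genes activated through Cat8, 3 were lower than in WT at 1 h in rph1Δ, where 9.27% of all genes were, and 3 in set2Δ, where 27.3% were, while 3 were higher and 1 lower in H3K36A, where 20% were higher and 26.7% lower, or 3 and none with library totals. ACS1 had -1.61 ± 0.08 in set2Δ, and JEN1, the carrier that takes up lactate and pyruvate, had -0.96 ± 0.09 in rph1Δ and 0.33 ± 0.09 in H3K36A. Of the 11 isozymes and partners, 7 were lower at 1 h in rph1Δ, where 9.27% of all genes were. CIT1, the mitochondrial citrate synthase (-1.17 ± 0.08), and ICL2 (-1.16 ± 0.07) were the lowest, and library totals gave 1 higher and 6 lower.

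The retrograde pathway genes, whose products are known to act on CIT2, were called for RTG1 (-0.89 ± 0.26), MKS1 (-0.38 ± 0.10) and RTG3 (0.31 ± 0.13) in set2Δ at 1 h and for no gene of the 4 in H3K36A at 1 h, where CIT2 was lower in both. In rph1Δ at 1 h RTG3 was higher (0.42 ± 0.13) and CIT2 lower. Over all genes at 1 h, 20.4% were higher and 27.3% lower in set2Δ, and 20% and 26.7% in H3K36A. In rph1Δ 5.9% were higher and 9.27% lower. Library totals gave 1 of the 4 higher in H3K36A at 1 h, beside 1994 higher and 1057 lower of the 6503 genes tested. They gave 1 higher and 1 lower in set2Δ, beside 2194 and 906. Among GID genes, VID24 was lower than in WT at 0 h in rph1Δ (-0.98 ± 0.13), set2Δ (-0.58 ± 0.13) and H3K36A (-0.63 ± 0.13) and higher at 1 h in each (0.51 ± 0.14, 0.70 ± 0.14 and 0.60 ± 0.14). Of the 17 regulators, none were called in rph1Δ at 1 h, where 5.9% of all genes were higher and 9.27% lower. MIG1 was lower in set2Δ at 1 h (-0.70 ± 0.10). Of the 10 genes for opposing steps, CDC19, the main pyruvate kinase, was lower at 1 h in rph1Δ (-0.92 ± 0.10), set2Δ (-2.45 ± 0.10) and H3K36A (-3.55 ± 0.11).

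Across the 12 group means, which share libraries, scaling and the step between media, the log2 levels of some of the 9 genes ran together and others did not. The Pearson correlation was 0.96 for ICL1 with SIP4, 0.94 for MDH2 with SIP4 and 0.94 for ICL1 with MDH2. It was 0.77 for CIT2 with ICL1, 0.53 for PCK1 with SFC1 and -0.23 for PCK1 with SIP4. Among 5306 genes with a mean CPM of at least 10, the profile closest to CIT2 was that of HMG1, an HMG-CoA reductase of sterol synthesis (0.92), followed by YJL133C-A (0.91) and YAT2, a carnitine acetyltransferase (0.90). The closest to SIP4 were PRM15, a phosphoribomutase (0.98), TMA17, a proteasome assembly chaperone (0.97), and YPR172W (0.97). The closest to CAT8 were the kinase genes PKH3 (0.86) and MPS1 (0.85) and the lipase gene TGL5 (0.84). The closest to the mean profile of FBP1, PCK1, ICL1, MLS1, MDH2 and SFC1 was MPC3, a subunit of the mitochondrial pyruvate carrier (0.86). SEN15, FMP32, YPL107W and YPL109C followed at 0.85 each. These are descriptions over 12 points, and 8 of them are groups in minimal medium.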

How the data were processed

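Libraries were made from mRNA of yeast in 12 groups of 2. Reads were trimmed with cutadapt 1.9.1, aligned with HISAT2 2.0.1 to sacCer3 and counted with HTSeq 0.6.1, names credited to the submitters' processing notes, which give no order or settings. The authors deposited whole read counts per gene, with an FPKM column per library beside them. The deposited FPKM equalled the count divided by exonic length and library total (tolerance 0.0051) for 100% of values. The sources used here do not say whether counting used read strand. The 6503 of 7126 genes that reached an FPKM of 1 in 2 or more libraries were tested with edgeR 4.0.16 (R 4.3.3): TMM scaling, 1 quasi-likelihood fit over all 12 groups with 12 residual degrees of freedom, Benjamini-Hochberg adjustment over all genes tested, and a call at an adjusted p under 0.05. SE is the log2 change over the square root of F. Totals of 6623458 to 7677684 counts and a common coefficient of biological variation of 6.73% set the precision. Alternatives were median-of-ratios scaling, library totals, other filters, DESeq2 1.42.0, limma 3.58.1 on log2(FPKM + 1) and log2(FPKM + 0.1), only the groups compared, a replicate block, and leaving out each library. The scripts were tested on simulated data. Upstream windows were searched with Biopython 1.88 and figures drawn with matplotlib 3.10.9.

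The 9 genes and the 7 other lists were chosen with earlier results of these data known. All 9 were tested in each comparison, but the text does not name every gene in each, and uncalled genes are often left out. From a list, up to 2 of the highest and 2 of the lowest called genes were named. For likeness, the 5 genes closest to the mean profile of 6 enzyme and carrier genes and the 3 closest to CIT2, CAT8 and SIP4 each were named. The retrograde genes were named in full because they are 4, after their values were seen. The comparisons of change from 1 h to 3 h between genotypes and the lists under other scalings were added after values were seen.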

Additional observations from a re-analysis of the deposited data

Results flagged for a closer look

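For each of the 37 values here, the log2 change over time in a mutant less that in WT was past the threshold of the interaction test (edgeR's quasi-likelihood test with Benjamini-Hochberg adjustment) when all libraries were used. Of the 37, 25 kept their call under every alternative, and 12 lost it on leaving out at least 1 library. In rph1Δ the 12 include FBP1 and ICL1 from 0 h to 1 h and ICL1 and MDH2 from 0 h to 3 h. In set2Δ they include MDH2 from 0 h to 1 h, PCK1 and SIP4 from 0 h to 3 h and CAT8 from 1 h to 3 h. In H3K36A they include FBP1 and ICL1 from 0 h to 1 h and ICL1 and SFC1 from 1 h to 3 h. All comparisons share the WT libraries, and each change from 0 h also holds the mutant's difference from WT at 0 h.

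In rph1Δ the change from 0 h to 1 h less that in WT was -0.49 for FBP1, -0.56 for ICL1, -1.07 for MLS1, -0.66 for MDH2, -2.17 for CIT2, -1.54 for SFC1 and -1.29 for SIP4. From 0 h to 3 h the values were -0.79 for FBP1, -0.54 for ICL1, -0.86 for MLS1, -0.54 for MDH2, -1.0 for CIT2, -0.73 for SFC1 and -0.72 for SIP4. From 1 h to 3 h the values were 1.17 for CIT2, 0.80 for SFC1 and 0.57 for SIP4.

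In set2Δ the change from 0 h to 1 h less that in WT was 0.60 for PCK1, 0.59 for MLS1 and -0.55 for MDH2. From 0 h to 3 h it was 0.41 for PCK1, 1.76 for CIT2, 0.82 for SFC1 and -0.45 for SIP4. From 1 h to 3 h it was -0.75 for MLS1, 0.71 for MDH2, 1.76 for CIT2, 0.56 for SFC1 and 0.49 for CAT8.

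In H3K36A the change from 0 h to 1 h less that in WT was 0.44 for FBP1, 0.41 for ICL1 and -1.79 for CIT2, and from 0 h to 3 h it was 0.51 for CIT2. From 1 h to 3 h it was -0.58 for FBP1, -0.43 for ICL1, 2.30 for CIT2 and 0.40 for SFC1.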

How the results depend on the processing

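Of 270 tests of the 9 genes, 140 were called, and 97 of these kept their call and direction under every alternative in which they were recomputed. The smallest log2 change kept was 0.34 in size and the largest lost was 0.56, and 39 of the 43 calls lost at least once were lost on leaving out 1 of the 2 libraries of a group. Library totals moved 19 calls by over 1.5 times without ending them. That scaling also ended 15 calls, gave 34 new ones among the 270 tests and turned the direction of 2 more. Each limma fit ended 23, gave 23 new ones and turned 2. With a replicate block, 2 of 140 calls were lost, PCK1 in WT at 3 h over 0 h (-0.23) and CAT8 in rph1Δ over WT at 0 h (0.38), and it changed no other call. Over 66 pairs of groups the correlation of deviations between replicate numbers was -0.39 to 0.29, and over 0.1 in 13. Between the times of set2Δ it was 0.29, 0.15 and 0.12, and between those of the other genotypes -0.115 to 0.067. These values do not settle whether a number marks a shared culture. SIP4 turned direction at 3 h over 1 h in WT (-0.023 with library totals and -0.021 with limma). It did so too in set2Δ (-0.26 with library totals and with limma on log2(FPKM + 0.1), -0.25 on log2(FPKM + 1)). Library totals moved the median of all genes by -0.27 in WT and -0.26 in set2Δ there. The limma fits used FPKM, which are scaled by library totals, so they are no separate check of scaling. The cause was not tested.

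Calls over all genes tested moved too, so the shifts below are not shown to be particular to the genes followed here. With only the groups compared, set2Δ over WT at 0 h gave 488 higher and 168 lower, against 867 and 568 as reported. For the H3K36A change over WT's from 0 h to 1 h, library totals gave 848 and 759, against 644 and 1168. Leaving out a library moved the calls over all genes as well, to fewer or to more. Among the genes followed, the counts of genes called that moved by over 1.5 times were these. At 3 h over 1 h in rph1Δ it was 3 with limma, against 5. At 1 h over 0 h in H3K36A it was 8 with library totals or limma, against 5. For set2Δ over WT at 0 h it was 4 with only the groups compared, against 7. For the H3K36A change over WT's from 0 h to 1 h it was 5 with library totals, a minimum FPKM of 10 or only the groups compared, against 3. From 0 h to 3 h it was 2 with median-of-ratios scaling or only the groups compared and 3 with library totals, a minimum FPKM of 10, DESeq2 or limma, against 1. For set2Δ over H3K36A it was 2 at 0 h with library totals or DESeq2, against 1, and at 3 h 1 with limma and 4 with only the groups compared, against 2. Leaving out a library gave 3 to 5 calls at 3 h over 1 h in WT (3 without WT 1 h replicate 2) and 3 to 6 in rph1Δ (3 without rph1Δ 1 h replicate 1). It gave 1 to 4 for rph1Δ over WT at 3 h (1 without WT 3 h replicate 2) and 3 to 6 for set2Δ over WT at 1 h (3 without WT 1 h replicate 2). For changes less WT's it gave 2 to 6 in set2Δ from 0 h to 3 h (2 without WT 0 h replicate 2), and in H3K36A 1 to 2 from 0 h to 1 h, 1 to 3 from 0 h to 3 h (3 without WT 3 h replicate 1) and 2 to 4 from 1 h to 3 h (2 without WT 1 h replicate 2 or H3K36A 3 h replicate 1). For set2Δ over H3K36A it gave 1 to 2 at 0 h (2 without set2Δ 0 h replicate 2) and 1 to 1 at 3 h.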
